A study of Homo sapiens with 9 samples.

Results

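The nuclear-encoded subunits of the respiratory chain and ATP synthase were followed in LNCaP:C4-2 cells in which METTL3, the catalytic subunit of the m6A RNA methyltransferase, was targeted by inducible shRNA. Members were taken by symbol: protein-coding genes starting NDUFA, NDUFB, NDUFC, NDUFS or NDUFV (without the NDUFAF assembly factors), UQCR, COX4 to COX8, or ATP5, without COX7A2L, pseudogenes and antisense genes. This gave 85 of the 60675 genes in the count tables: 40 assigned to complex I (NADH dehydrogenase), 9 to complex III (the cytochrome bc1 complex), 16 to complex IV (cytochrome c oxidase) and 20 to complex V (ATP synthase). Of these, 76 passed the filter on low counts, namely 39, 9, 10 and 18 in the same order.

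RNA-seq was carried out on 9 libraries, 3 each of shScramble, shMETTL3 guide 2 and shMETTL3 guide 1. LNCaP:C4-2 is a castrate-resistant prostate cancer cell line derived from LNCaP. All groups, the shScramble controls included, were stable, puromycin-selected cells carrying a lentiviral, doxycycline-inducible shRNA construct (pLKO.1-puro in the labels, Tet-pLKO-puro in the methods), were held in medium with charcoal-stripped serum, and received 1 μg/ml doxycycline for 6 days to induce the hairpin, although the sample titles also name a vehicle. The methods call the selected cells clones without saying how many there were, so differences between clones and effects of a hairpin cannot be told apart. The 3 libraries of a group were not stated to come from separate cultures, so the p-values measure the spread between these libraries.

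Complexes I, III and IV pass electrons from NADH to oxygen while pumping protons out of the mitochondrial matrix, and complex V uses the returning protons to make ATP. Most of their subunits are encoded in the nucleus, translated in the cytosol and imported, while 13 core subunits are encoded by mitochondrial DNA and made inside the organelle. A complex therefore needs products of both genomes, and an unpaired subunit is usually degraded. Prostate cancer cells are known to lean more on oxidative phosphorylation than normal prostate epithelium does.

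The libraries held 21899501 to 30897639 counts, and the members together took 0.976% to 1.55% of them. Counts of METTL3 were 922, 1010 and 753 for shScramble, fewer for guide 2 (382, 415 and 349), and 837, 837 and 886 under the guide 1 label. Relative to shScramble it was lower with guide 2, by a log2 fold change of -0.95 ± 0.07 (SE, adjusted p = 2.97e-12), but not detectably in the libraries labelled guide 1 (-0.08 ± 0.06, adjusted p = 0.251). Lower METTL3 RNA was thus not detected under the guide 1 label, and these libraries are referred to by that label throughout. All 9 luminal prostate markers examined, such as HOXB13 and KRT8, passed the count filter, whereas KRT5, TP63 and PECAM1 (basal and endothelial markers) had 0 counts in every library. COL1A1 was present at 43.4 CPM in shScramble while COL1A2 had at most 1 count in a library. CPM here is the count of a gene relative to the TMM-scaled total of its library. Of the 9 luminal markers, 7 fell in the libraries labelled guide 1 and 3 fell with guide 2, and the part of these marker differences in the results below was not tested. Because these are bulk libraries, fewer cells of a kind and less RNA per cell cannot be told apart.

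In guide 2 libraries, the summed expression of the respiratory chain members was higher than in shScramble in all 4 complexes. Summed over the 85 members, expression was 12082 ± 263 CPM in shScramble, 16453 ± 187 CPM with guide 2 and 10075 ± 670 CPM in the libraries labelled guide 1 (SD, n = 3), so that the guide 2 sum was 1.36 times and the guide 1 sum 0.834 times that of shScramble. No guide 2 library overlapped either of the other groups. Without ATP5F1B, which alone gave 1875 CPM in shScramble, the ratios were 1.35 and 0.844. By complex, the guide 2 sum was 29.8% higher for complex I, 43.1% for complex III, 42.6% for complex IV and 36.6% for complex V. The sums of the libraries labelled guide 1 were lower by 15.8%, 12.6%, 18.3% and 17.7%, respectively.

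**Figure D1:**
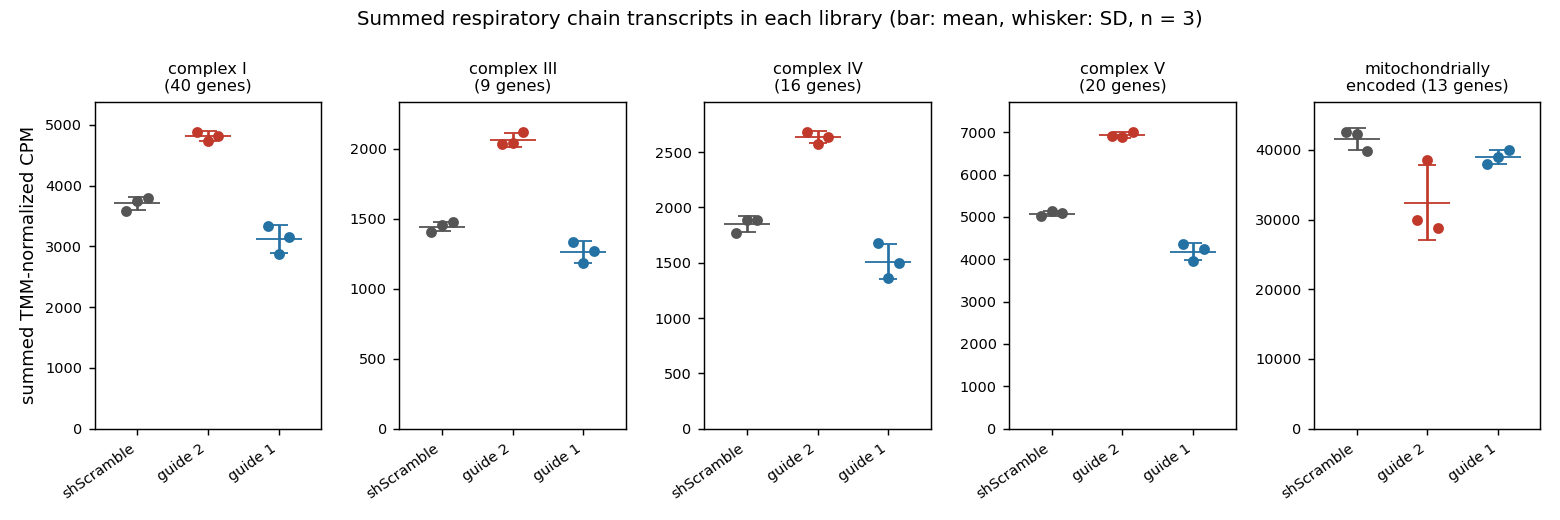
Summed TMM-normalised CPM of the members of each complex, and of the 13 mitochondrially encoded subunits, in each library (points), with the group mean (bar) and SD (whisker, n = 3). Guide 2 libraries lie above both other groups in each nuclear-encoded complex, while the sum of the mitochondrially encoded subunits averages 32415 CPM with guide 2 against 41555 CPM in shScramble.

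Rises and falls were counted where edgeR's quasi-likelihood test gave an adjusted p (Benjamini-Hochberg) below 0.05, and a change was called where it also reached 1.5-fold. With guide 2, 55 of the 76 tested members rose and 5 fell, while 16 did not pass. Among all 19278 tested genes, 30.0% rose and 31.7% fell. Called members numbered 12 raised and 4 lowered, where 8.85% of all tested genes were called raised, 20.4% lowered and 29.3% either way. Guide 2 and shScramble libraries did not overlap for 63 members that were higher and 5 that were lower, compared with 32.5% and 34.1% of all tested genes. The median log2 fold change was 0.38 over the tested members and -0.04 over all tested genes.

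Other genes of like abundance and length were also higher with guide 2. The median was 0.16 in the upper tertile of tested genes by mean CPM, and 0.28 in 322 non-member protein-coding genes of that tertile whose canonical transcript is under 1000 bases. Members with transcripts under 1000 bases had a median of 0.37 (49 genes) and longer members one of 0.43 (27 genes). Of the 322 non-members, 64.6% rose and 13.4% were called raised. The shares were 65.3% and 14.3% for the short members, and 85.2% and 18.5% for the longer ones. The part of abundance and transcript length in the change was not tested further. Scaling by library size alone moved the median of all tested genes from -0.04 to -0.19, and then 39 members rose, 8 fell and 8 were called raised. NDUFB6, NDUFB5, COX7A2 and UQCRC2 were then short of 1.5-fold, while the median of each complex was still above 0.

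**Figure D2:**
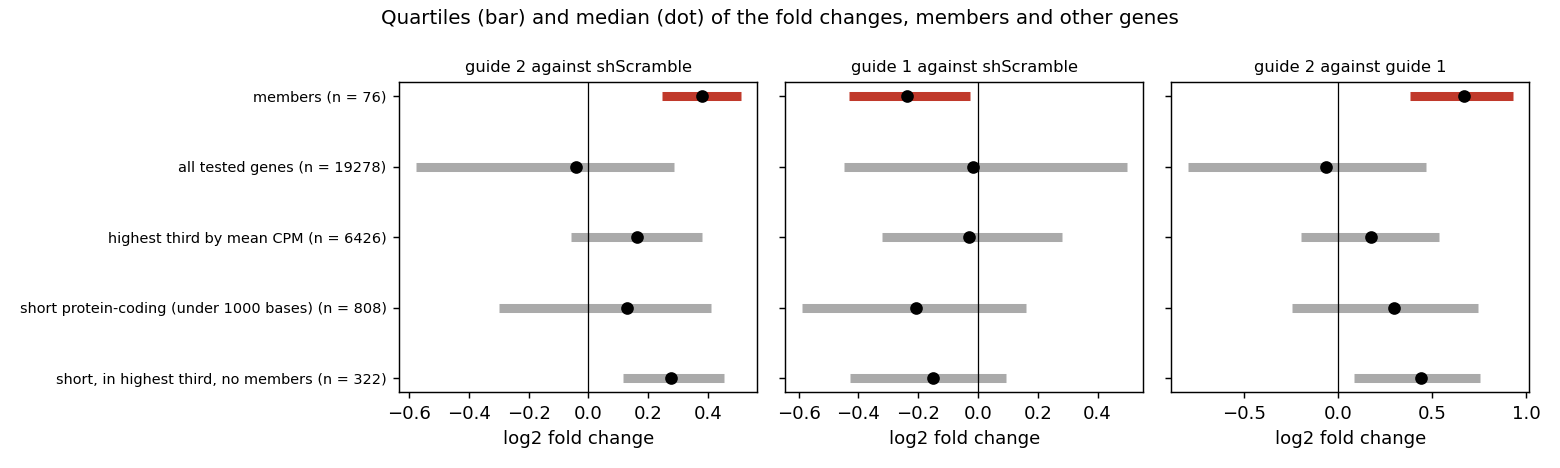
Quartiles (bar) and median (dot) of the log2 fold changes of the 76 tested members and of 4 other sets of genes, in the 3 comparisons. The members' median is 0.38 with guide 2, against 0.28 for short transcripts of the upper tertile by mean CPM, and -0.24 in the libraries labelled guide 1, against -0.15 for those transcripts.

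Promoter sequences are given for 4 members whose sequence before the RefSeq start held a match to a motif searched here: COX6B1 and ATP5MC1, the members with the largest rise in complexes IV and V, and UQCRFS1 and UQCRC1, a pair of complex III members with the NRF1 motif. Each is the 150 bases before the RefSeq transcription start (GRCh38.p14), 5′ to 3′ on the strand of the gene. In all 4 genes the RefSeq start lies inside the Ensembl gene, so that the stretches of COX6B1 and ATP5MC1 run across the Ensembl gene start and those of UQCRFS1 and UQCRC1 lie wholly inside the Ensembl gene. Capitals mark the matches, on either strand: CCAAT and an ETS motif (CCGGAAG) in COX6B1, 3 CCAAT matches in ATP5MC1, and the motif of nuclear respiratory factor 1 (NRF1) in UQCRFS1 and UQCRC1. The NRF1 motif was searched as GCGCA and GCGC with any 1 base between them.
COX6B1, chr19:35648173-35648322, plus strand: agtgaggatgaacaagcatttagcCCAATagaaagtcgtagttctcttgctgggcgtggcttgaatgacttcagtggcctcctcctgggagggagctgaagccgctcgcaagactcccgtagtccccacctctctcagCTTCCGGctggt
ATP5MC1, chr17:48892637-48892786, plus strand: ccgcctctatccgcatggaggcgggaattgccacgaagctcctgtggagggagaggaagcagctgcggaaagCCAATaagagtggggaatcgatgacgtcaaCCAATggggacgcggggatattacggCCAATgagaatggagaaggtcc
UQCRFS1, chr19:29213152-29213301, minus strand: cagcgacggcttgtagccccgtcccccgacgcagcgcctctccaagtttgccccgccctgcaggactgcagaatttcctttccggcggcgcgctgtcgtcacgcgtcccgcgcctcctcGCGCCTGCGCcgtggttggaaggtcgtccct
UQCRC1, chr3:48609647-48609796, minus strand: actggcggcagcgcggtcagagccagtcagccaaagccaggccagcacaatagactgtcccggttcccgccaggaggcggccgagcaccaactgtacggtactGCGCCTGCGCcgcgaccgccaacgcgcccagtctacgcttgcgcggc
Of the 85 members, 67 had a RefSeq promoter of 300 bases (250 before and 50 after the start) in the table used, and both strands were searched. The NRF1 motif was found in 15 of them (22.4%), compared with 8.44% of all 17796 promoters. By complex it was in 6 of 33 (I), 4 of 7 (III), 1 of 13 (IV) and 4 of 14 (V) promoters. The ETS motif, bound by GABP among others, was in 28.4% of member promoters and 13.9% of all, the YY1 motif (AAGATGGCG) in 11.9% and 2.71%, and CCAAT in 34.3% and 36.4%. With guide 2, the median log2 fold change was 0.39 for tested members with the NRF1 motif and 0.37 for those without. It was 0.42 and 0.37 for ETS, 0.28 and 0.40 for YY1, and 0.48 and 0.36 for CCAAT. No test was run on these medians, and a match describes letters in this window, not a bound factor.

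Complex I takes electrons from NADH through a hydrophilic arm that holds 7 nuclear-encoded core subunits, surrounded by accessory subunits. With guide 2, 26 of 39 tested complex I members rose and 5 fell (median log2 fold change 0.32). Of the core subunits, NDUFS3 (0.42), NDUFV1, the NADH-binding subunit (0.22), and NDUFS1 (0.20), an iron-sulphur subunit, rose on the log2 scale. With library size as the only scaling, neither NDUFV1 (0.07) nor NDUFS1 (0.05) passed. NDUFS8 (0.13, adjusted p = 0.0606) and NDUFS7 (0.12, adjusted p = 0.113), which carry iron-sulphur clusters near the ubiquinone site, did not pass. NDUFS7, NDUFS3 and NDUFS1 shared 49.1%, 22.4% and 11.7% of their exon bases with other genes, so some of their reads could have been assigned elsewhere.

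Among the accessory subunits of complex I, 22 of 32 tested rose and 4 fell with guide 2. NDUFB3, a subunit of the membrane arm, was at 38.3, 39.3 and 43.4 CPM in shScramble and at 71.7, 74.9 and 68.4 CPM with guide 2. The other membrane arm subunits called raised were NDUFB6, with 43.3, 43.4 and 48.6 against 75.3, 75.7 and 73.4 CPM, and NDUFB5, with 84.7, 86.8 and 87.5 against 135, 130.5 and 130.1 CPM. Their log2 fold changes were 0.83 ± 0.10, 0.73 ± 0.06 and 0.61 ± 0.06 (SE), and none of the 3 genes overlapped between these groups. NDUFB3 shared 19.8% of its exon bases with HYCC2, so some of its reads could have been assigned elsewhere. NDUFAB1, the mitochondrial acyl carrier protein, rose by 0.50 on the log2 scale, as did NDUFA4 (0.50), an accessory subunit first assigned to complex I and later found in complex IV. With NDUFA4 counted in complex IV, the medians of complexes I and IV were 0.31 and 0.50.

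The 5 members that fell with guide 2 all belonged to complex I. NDUFA4L2, the hypoxia-inducible paralogue of NDUFA4, was at 29.6, 24.4 and 31.6 CPM in shScramble, at 12.8, 12.6 and 14.1 CPM with guide 2 and at 28.9, 42.01 and 33.0 CPM in the libraries labelled guide 1. Its guide 2 libraries all lay below both other groups, with a log2 fold change of -1.11 ± 0.15 (SE, adjusted p = 0.000125). The other 4 overlapped other genes or had a pseudogene with reads, so that some of their reads could have been assigned elsewhere. NDUFV2, a core iron-sulphur subunit, fell from 3.95, 4.58 and 5.21 CPM to 1.39, 1.71 and 0.861 CPM (-1.77 ± 0.22), but its pseudogene NDUFV2P1 held 269% as many counts as the gene, and rose by 0.55 on the log2 scale. NDUFA7, an accessory subunit, was at 1.16, 1.22 and 0.920 CPM in shScramble and 0.260, 0.678 and 0.725 CPM with guide 2 (-0.999 ± 0.34), with 33.5% of its exon bases shared with other annotated genes, one of them RPS28. Without guide 2 replicate 1, the fall of NDUFA7 in guide 2 against shScramble no longer passed (-0.66, adjusted p = 0.0904). NDUFA13 (-0.64 ± 0.15) shared 21.0% of its exon bases and NDUFA11 (-0.33 ± 0.11) shared 12.1%. YJEFN3, which overlaps NDUFA13, also fell with guide 2 (log2 fold change -1.30 ± 0.18, SE). RPS28 had a value of 0.04 ± 0.07 and did not pass (adjusted p = 0.609). Whether reads were exchanged between these genes was not tested. Without members sharing over 10% of their exon bases, 1 member was lowered and the complex I median was 0.38.

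Complex III moves electrons from ubiquinol to cytochrome c and consists of a nuclear-encoded iron-sulphur protein, core proteins and small subunits around mitochondrially encoded cytochrome b. With guide 2, 8 of its 9 members rose and none fell (median 0.52), and all 9 lay above shScramble without overlap. UQCR10, a small subunit, was at 70.8, 71.4 and 81.7 CPM in shScramble and 141, 134 and 136 CPM with guide 2. The core protein UQCRC2 was at 231, 238 and 239 CPM and then at 345, 359.8 and 390.5 CPM. Their log2 fold changes were 0.88 ± 0.12 and 0.63 ± 0.05 (SE); UQCRC2 fell short of 1.5-fold without guide 2 replicate 3 (0.58). UQCRC1, the other core protein, rose by 0.43 and UQCRH, the hinge protein that docks cytochrome c1, by 0.52 on the log2 scale. The Rieske iron-sulphur protein UQCRFS1 rose by 0.56, and its pseudogenes held 31.7% as many counts as the gene. One of them, UQCRFS1P1, rose by 0.98 on the log2 scale, from a mean of 34.9 CPM in shScramble to 68.7 CPM with guide 2. Whether reads were exchanged between UQCRFS1 and UQCRFS1P1 was not tested. UQCRHL, a near-identical copy of UQCRH, had a log2 fold change of 0.85 at 8.74 CPM in shScramble, and reads of this pair may have been assigned to either. UQCRQ had a value of 0.44 (adjusted p = 0.0568).

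Complex IV reduces oxygen to water on 3 mitochondrially encoded core subunits, which nuclear-encoded subunits surround. With guide 2, 7 of its 10 tested members rose and none fell (median 0.49). The largest rise of any tested member was in COX6B1 (chr19:35648223-35658861, GRCh38), a subunit on the intermembrane space side that links the monomers of the dimer. Its expression was 69.4, 73.9 and 76.7 CPM in shScramble, 185, 170.4 and 199 CPM with guide 2, and 73.2, 62.0 and 67.8 CPM in the libraries labelled guide 1. Every guide 2 library exceeded every other library, and the fold change was 2.52, or 1.33 ± 0.06 on the log2 scale (SE, adjusted p = 1.64e-14). COX4I1 (chr16:85798633-85807044), the largest nuclear-encoded subunit and the site of allosteric regulation by ATP, was at 233, 237 and 253 CPM in shScramble, at 495, 466 and 491 CPM with guide 2 and at 333, 275 and 304 CPM in the libraries labelled guide 1. The 3 groups did not overlap, with log2 fold changes of 1.01 ± 0.06 and 0.33 ± 0.06 (SE). COX7A2 was also called raised (0.67 ± 0.14).

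Not all complex IV subunits moved with guide 2. COX6C, COX8A and COX6A1 had log2 fold changes of 0.05 ± 0.05, 0.04 ± 0.07 and 0.02 ± 0.12 (SE), with adjusted p-values of 0.433, 0.621 and 0.902. Each of these genes overlapped between shScramble and guide 2 libraries. COX5A, COX7B, COX7C and COX5B rose by 0.50, 0.53, 0.47 and 0.27 on the log2 scale. Several complex IV subunits have tissue-specific isoforms, and here the ubiquitous one made up nearly all reads. COX4I2, the lung isoform, had 0 counts in all 9 libraries, which allows up to 0.136 CPM in the library with the highest such limit (3 counts, covering counting error only). COX6A2 and COX7A1, the heart and muscle isoforms, had at most 3 and 8 counts in a library, and COX6B2, COX7B2 and COX8C at most 9, 6 and 5. None of these 6 genes was tested, nor were NDUFC2-KCTD14, ATP5MF-PTCD1 and ATP5MGL, with at most 6 counts in any library.

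Complex V consists of an F1 head that makes ATP, a peripheral stalk, and a membrane part with a rotating c ring. With guide 2, 14 of its 18 tested members rose and none fell (median 0.40). ATP5F1B, the catalytic beta subunit, had the highest level per kilobase of canonical transcript of all members in shScramble (1066 CPM per kb), followed by COX7C (698) and UQCRH (527). Its expression was 1904, 1868 and 1852 CPM in shScramble, 2594, 2633 and 2743 CPM with guide 2, and 1441, 1460.3 and 1489 CPM in the libraries labelled guide 1. The groups were fully separate, and the log2 fold change with guide 2 was 0.50 ± 0.05 (SE, adjusted p = 7.39e-10). ATP5F1A, the alpha subunit, rose by 0.52, and the gamma subunit ATP5F1C, the rotor shaft, by 0.34 on the log2 scale. ATP5IF1, the inhibitor of the F1 head that acts when the matrix turns acidic, rose by 0.50.

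The c subunit is encoded by 3 genes whose mature protein is the same, and they did not move alike. ATP5MC1 was at 47.8, 50.6 and 54.9 CPM in shScramble and 98.2, 94.4 and 96.4 CPM with guide 2. ATP5MC3 was at 183, 190.3 and 185 CPM and then at 346, 336 and 345 CPM. ATP5MC2 was at 212, 221 and 227 CPM and then at 217, 207 and 228 CPM. Guide 2 libraries were above all shScramble libraries for ATP5MC1 and ATP5MC3 (log2 fold changes 0.92 ± 0.06 and 0.88 ± 0.05), and overlapped for ATP5MC2 (-0.02 ± 0.05, adjusted p = 0.800). Per kilobase of canonical transcript, ATP5MC2 had the highest level of the 3 in shScramble, 348 against 79.1 and 72.1 CPM per kb. In the peripheral stalk, ATP5PD, ATP5PB and ATP5PF rose by 0.46, 0.36 and 0.36 on the log2 scale, whereas ATP5PO, the subunit that joins the stalk to the head, had a value of -0.03 ± 0.06 (adjusted p = 0.648).

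**Figure D3:**
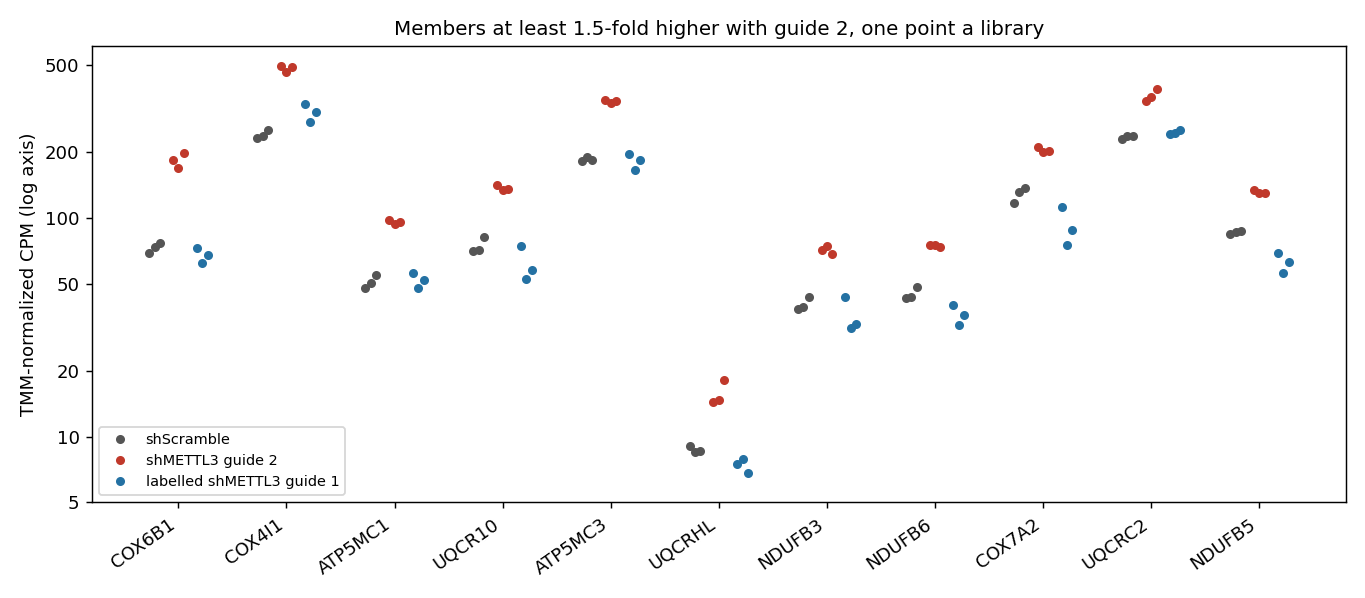
TMM-normalised CPM on a log axis, 1 point a library, of 11 of the 12 members raised at least 1.5-fold with guide 2, ordered by fold change. The 3 guide 2 libraries lie above all shScramble libraries for each gene, from COX6B1 (2.52-fold) to NDUFB5 (1.53-fold).

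In the libraries labelled guide 1, members were lower rather than higher than in shScramble. These comparisons share the shScramble libraries. Of the 76 tested members, 40 fell and 6 rose, while 33.0% of all tested genes fell and 35.4% rose. No member was called raised (21.2% of all tested genes were) and 11 were called lowered (16.5% of all tested genes, 37.7% either way). At the adjusted p alone 6 members rose, and DESeq2 also called none raised at 1.5-fold. The groups did not overlap for 38 members below and 8 above shScramble, with 34.5% and 36.5% of all tested genes doing so. The median log2 fold change was -0.24, and it was -0.20, -0.23, -0.39 and -0.28 in complexes I, III, IV and V. In the same comparison it was -0.02 for all tested genes, -0.03 for the upper tertile by mean CPM, -0.21 for short protein-coding transcripts and -0.15 for the short transcripts of the upper tertile. Of those last, non-member genes, 46.6% fell and 12.7% were called lowered. The shares were 49.0% and 16.3% for members with transcripts under 1000 bases, and 59.3% and 11.1% for longer members.

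Of the 11 members called lowered in the libraries labelled guide 1, 7 belonged to complex I, 1 to complex IV and 3 to complex V. In complex I, NDUFB4, a membrane arm subunit, was at 233, 239 and 247 CPM in shScramble and 148, 133 and 143 CPM in the guide 1 libraries, while guide 2 libraries had 326, 326 and 331 CPM. NDUFA5, on the hydrophilic arm, was at 151, 166 and 168 CPM and then at 102, 91.9 and 98.1 CPM. In both genes the guide 1 libraries lay below all others, with log2 fold changes of -0.76 ± 0.05 and -0.73 ± 0.05 (SE). NDUFA2, NDUFB2, NDUFA4 and NDUFB1 were called at -0.69, -0.64, -0.63 and -0.63, and NDUFV2 at -0.77 with the pseudogene limit given above. COX7C was the complex IV member called lowered, at 405, 442 and 469.5 CPM in shScramble and 353, 249.9 and 262 CPM in the guide 1 libraries. In complex V, ATP5MK and ATP5MF, small subunits of the membrane part, and ATP5F1E, the epsilon subunit of the central stalk, had log2 fold changes of -0.68, -0.66 and -0.60. NDUFB2, NDUFV2, ATP5F1E and ATP5MK shared 35.9%, 28.4%, 23.2% and 18.6% of their exon bases with other genes. NDUFA2 also shared over 10%. Some reads of the members with shared bases could have been assigned elsewhere.

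The number of calls varied with the libraries used. Guide 1 replicate 1 was the highest of its group for 57 of 76 members and replicate 2 the lowest for 59, compared with 34.4% and 36.0% of all tested genes. For short protein-coding transcripts the shares were 61.6% and 68.6%. Without guide 1 replicate 2, 3 members were called lowered (NDUFB4, NDUFA5 and NDUFV2), and without guide 1 replicate 1, 16 were. COX7C also fell short of 1.5-fold without shScramble replicate 3 (-0.56) or guide 1 replicate 3 (-0.54), and ATP5F1E without shScramble replicate 2 (-0.55) or guide 1 replicate 3 (-0.58). In shScramble, replicate 1 was the lowest for 58 members (76.3%), compared with 33.0% of all tested genes and 57.5% of short protein-coding transcripts. The part of these differences between libraries in the result was not tested.

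The 6 members that rose in the libraries labelled guide 1 were COX4I1 (0.33), ATP5PO (0.30), NDUFS7 (0.23), NDUFB10 (0.19), ATP5MC2 (0.18) and NDUFV3 (0.13), all as log2 fold changes under 1.5-fold. NDUFS7 shared 49.1% of its exon bases with other genes. ATP5PO was at 51.0, 52.6 and 51.2 CPM in shScramble and 67.9, 59.3 and 63.8 CPM in the guide 1 libraries, without overlap. UQCRC2 had a value of 0.07 ± 0.05 (adjusted p = 0.194), and complex III had no called member.

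**Figure D4:**
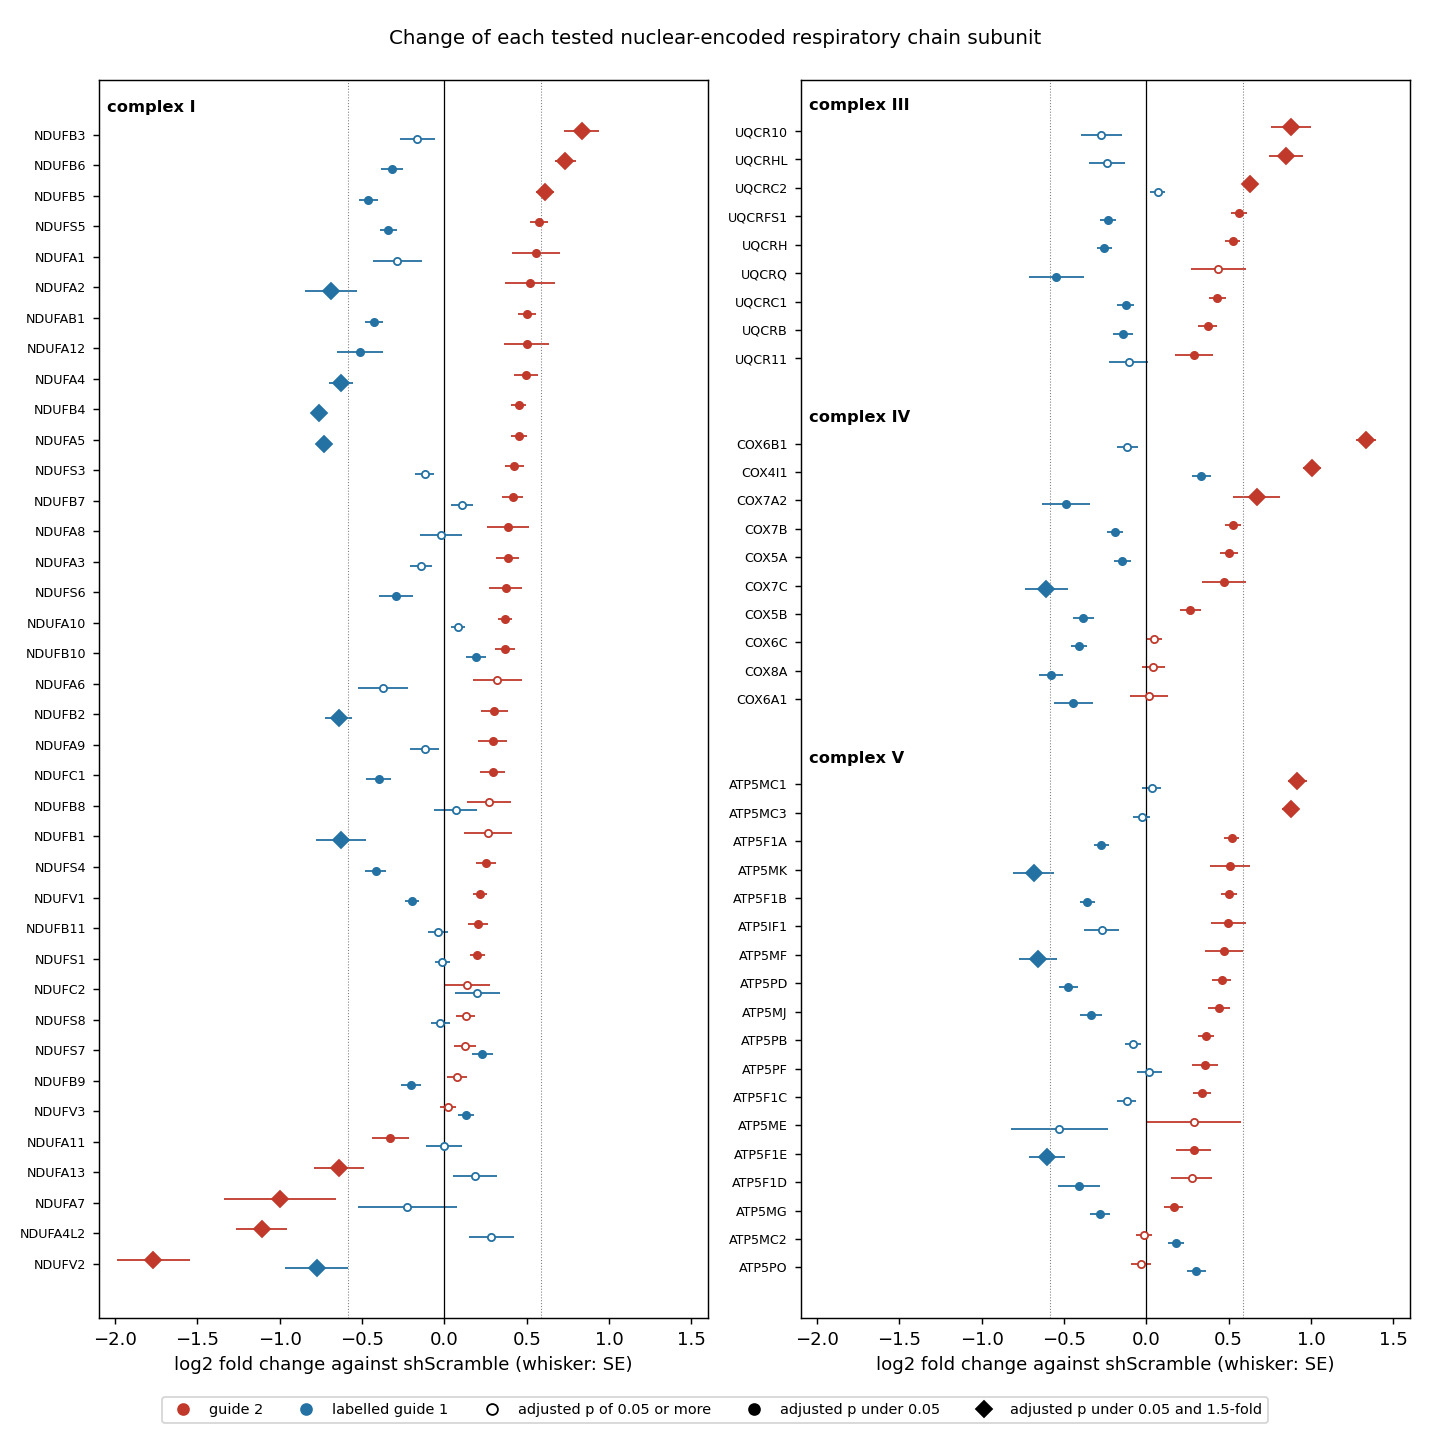
Log2 fold change against shScramble (point) with SE (whisker) of 75 of the 76 tested members by complex, for guide 2 and the libraries labelled guide 1. Open points did not pass an adjusted p of 0.05, diamonds also changed 1.5-fold (dotted lines); guide 2 points lie right of 0 for 68 of these 75 members and guide 1 points for 15.

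Guide 2 and the libraries labelled guide 1 were also compared directly. With guide 2, 65 of 76 members were higher and 8 lower, against 34.7% and 39.9% of all tested genes. Called members numbered 43 higher and 4 lower, where 19.1% of tested genes were called higher, 28.2% lower and 47.3% either way, and the groups were fully separate for 63 above and 7 below (35.4% and 40.4% of all tested genes). The median log2 difference was 0.67 over members and -0.06 over all tested genes, and 0.53, 0.78, 0.66 and 0.78 in complexes I, III, IV and V. It was 0.18 in the upper tertile by mean CPM and 0.44 in the 322 short non-member transcripts of that tertile. Of those 322 genes, 68.9% were higher and 38.5% were called higher with guide 2. The shares were 81.6% and 59.2% for members with transcripts under 1000 bases, and 92.6% and 51.9% for longer members. COX6B1 differed most among the raised (1.45 ± 0.06, SE), followed by NDUFB4 and NDUFA2 (both 1.21). The 4 called lower with guide 2 were NDUFA4L2 (-1.39), NDUFV2 (-0.99), NDUFA13 (-0.82) and NDUFA7 (-0.77). NDUFA7 in guide 2 against guide 1 no longer passed in DESeq2 (adjusted p = 0.120), nor without guide 2 replicate 1 (-0.43, adjusted p = 0.254), guide 1 replicate 2 (-0.70, adjusted p = 0.109), guide 1 replicates 1 or 3, or shScramble replicates 1 or 2, each left out alone (adjusted p = 0.0532 to 0.0696).

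All 4 subunits of complex II, which feeds electrons from succinate and is nuclear-encoded throughout, rose with guide 2, led by the flavoprotein SDHA: 160 ± 5.6 CPM in shScramble, 349 ± 2.0 CPM with guide 2 and 149 ± 0.82 CPM in the libraries labelled guide 1 (SD, n = 3). The log2 fold change of SDHA with guide 2 was 1.13 ± 0.04 (SE), and in the libraries labelled guide 1, 3 of the 4 subunits fell. Cytochrome c (CYCS) and cytochrome c1 (CYC1) rose by 0.64 and 0.37 with guide 2, and both fell in the libraries labelled guide 1, with log2 fold changes of -0.18 and -0.17. Of the assembly factors, 9 of 16 for complex I, 4 of 6 for complex III and 3 of 3 for complex V rose with guide 2 and none fell. For complex IV, 14 of 23 rose and 3 fell. COX10, which makes haem O for cytochrome c oxidase, had the largest rise of these factors (0.80 ± 0.06) and COX20, a chaperone of a mitochondrially encoded subunit, the largest fall (-0.41 ± 0.15). In the libraries labelled guide 1 the counts of rises and falls were 4 and 3, 3 and 1, 0 and 1, and 6 and 7 for the factors of complexes I, III, V and IV.

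The mitochondrially encoded subunits did not rise with the nuclear-encoded ones. Of 13, none rose and 9 fell with guide 2 (median log2 fold change -0.31), with MT-ND1 (-0.73) and MT-CYB (-0.64) called. MT-ATP8 had a value of 0.67 ± 0.53 (SE) and did not pass (adjusted p = 0.310). Their summed expression was 42631, 42235 and 39799 CPM in shScramble, 29899, 38554 and 28793 CPM with guide 2, and 38034, 38938 and 39974 CPM in the libraries labelled guide 1. The guide 2 libraries all lay below shScramble, replicate 2 by much less than the others. The guide 2 mean was 0.780 times that of shScramble, beside 1.36 times for the sum of the nuclear-encoded members.

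Transcription factors and coactivators known to act on these genes were mixed. NRF1, whose motif is shown above, fell with guide 2 from 101 ± 2.7 to 46.0 ± 2.7 CPM and was at 58.5 ± 1.9 CPM in the libraries labelled guide 1 (SD, n = 3), with log2 fold changes of -1.13 ± 0.05 and -0.78 ± 0.05 (SE). ESRRA, the estrogen-related receptor alpha, was at 190 ± 8.1, 278 ± 17 and 122 ± 0.64 CPM in the same order, a rise of 0.55 with guide 2 and a fall in the libraries labelled guide 1 (-0.64). The coactivators PPARGC1A and PPARGC1B and the mitochondrial DNA factor TFAM rose with guide 2 by 0.40, 0.40 and 0.30 on the log2 scale. The rise of YY1 (0.12) was smaller than the distance between the all-gene medians under both scalings. The GABP subunits GABPA and GABPB1 had values of -0.12 and -0.08, and PPRC1 one of -0.02, none of which passed. In the libraries labelled guide 1, where 40 members fell, PPRC1 was called raised (0.67), and PPARGC1B (0.40), GABPA (0.29), TFAM (0.27) and YY1 (0.19) also rose. GABPB1 fell there (-0.42), and PPARGC1A had a value of -0.26 that did not pass (adjusted p = 0.0729).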

How the data were processed

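RNA-seq libraries of LNCaP:C4-2 cells (3 shScramble, 3 shMETTL3 guide 2, 3 shMETTL3 guide 1) were grouped from the sample labels. Per the labels and methods, reads were trimmed, mapped with STAR (GRCh38) and assigned to genes with featureCounts. The deposited values are raw counts per Ensembl gene in each library, neither normalised nor pooled. The strand setting and the treatment of reads matching several genes were not given in the sources used here, so overlapping genes and near-identical copies may exchange reads. Symbols came from GENCODE and RefSeq tables of the same build and matched 56558 of 60675 identifiers. Coordinates of genes are those of the count files.

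Libraries were scaled by TMM in edgeR 4.0.16 (R 4.3.3), genes were filtered with filterByExpr (minimum count 10, minimum total 15), and the 19278 genes left were fitted with robust quasi-likelihood dispersions and tested by the F test of edgeR, using all 9 libraries, 1 coefficient per group and no covariate. P-values were Benjamini-Hochberg adjusted over all tested genes, and a call needed an adjusted p under 0.05 and a 1.5-fold change. Library totals were 21899501 to 30897639 counts. The pipeline was tested on simulated data. Alternatives were DESeq2 1.42.0, other scalings and filters, a test against 1.5-fold, a replicate block, the 6 libraries compared alone, leaving out each library, and leaving out members that overlap other genes or have pseudogene counts; the last was added after seeing the data.

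Named members were the 3 largest rises and falls per complex and comparison, the called members (in complex I, which had over 12, the 6 largest changes), other complex I core and key subunits, and the isoform pairs; further members are named where a count of 5 or fewer needed it or to complete a group, and these were chosen after their values were seen. The members and gene lists were chosen with earlier results of these data known. Reads per splice form and m6A sites were not analysed here. A member is counted in the totals but its values are not reported here.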

Additional observations from a re-analysis of the deposited data

Results flagged for a closer look

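The effect of the guides differed by the direct test of guide 2 against the libraries labelled guide 1 (edgeR's quasi-likelihood test) for 18 members called higher and 4 called lower in complex I, 5 called higher in complex III, 8 in complex IV and 12 in complex V. Among all tested genes, 19.1% were called higher and 28.2% lower in this comparison. Of the 322 short non-member transcripts of the upper tertile by mean CPM, 38.5% were called higher and 1.86% lower. Differences of at least 1 on the log2 scale among the complex I members chosen by the naming rule were NDUFA4 (1.12), NDUFA5 (1.18), NDUFB4 (1.21), NDUFB6 (1.05) and, in the other direction, NDUFA4L2 (-1.39). NDUFA2 (1.21), NDUFB5 (1.07) and NDUFA12 (1.01), which that rule did not name, also reached 1. In complex III they were UQCR10 (1.15) and UQCRHL (1.09), in complex IV COX6B1 (1.45), COX7A2 (1.16) and COX7C (1.08), and in complex V ATP5MF (1.13) and ATP5MK (1.19). METTL3 RNA itself differed by -0.86 in this comparison.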

How the results depend on the processing

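Counting members at the adjusted p alone, without the 1.5-fold limit, gave 55 raised with guide 2, 6 and 40 raised and lowered under the guide 1 label, and 65 higher and 8 lower between the guides. A test against 1.5-fold itself (glmTreat) left 2 members lowered with guide 2 and 2 in the libraries labelled guide 1. NDUFB5, COX7A2 and UQCRC2, called raised with guide 2, did not pass that test (glmTreat adjusted p = 0.475, 0.415 and 0.242). Without members that overlap another gene by over 10% of exon bases, 1 member was called lowered with guide 2 and 1 was lowered at the adjusted p, 6 were called lowered in the libraries labelled guide 1, and between the guides 1 was called lower and 3 were lower at the adjusted p. With library size as the only scaling, 8 members were lowered with guide 2, and NDUFV3, at 0.02 with TMM, was at -0.13 and passed the test, the only reversal among the results compared.

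Medians of complexes I, III, IV and V moved by more than the spread between replicates as follows. With library size alone they were 0.17, 0.37, 0.34 and 0.25 with guide 2 and 0.39, 0.64, 0.52 and 0.65 between the guides. With a minimum mean of 1 CPM they were 0.48, 0.44 and 0.35 (III, IV, V) with guide 2 and 0.49, 0.74, 0.62 and 0.74 between the guides. Without overlapping members they were 0.38, 0.56 and 0.47 (I, III, V) with guide 2 and 0.67 and 0.69 (I, IV) between the guides. Between the guides they were also 0.47 and 0.67 (I, IV) with NDUFA4 counted in complex IV, 0.68 and 0.80 (IV, V) without a filter, and 0.67 (IV) with only the 6 libraries compared. Without members having pseudogene counts over 10% of their own, an alternative chosen after seeing the data, complex III was at 0.48 with guide 2 and 0.67 between the guides. The cause of these shifts was not tested.

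Leaving out 1 library at a time gave 12 to 13 members called raised and 3 to 4 lowered with guide 2 (48 to 61 and 4 to 5 at the adjusted p), 0 and 3 to 16 under the guide 1 label (4 to 8 and 34 to 51), and 39 to 46 higher and 3 to 4 lower between the guides (62 to 64 and 5 to 8). Medians of complexes I, III, IV and V ranged from 0.27 to 0.38, 0.51 to 0.54, 0.46 to 0.51 and 0.38 to 0.44 with guide 2. They ranged from -0.24 to -0.18, -0.26 to -0.17, -0.47 to -0.32 and -0.32 to -0.24 in the libraries labelled guide 1, and from 0.47 to 0.59, 0.75 to 0.81, 0.63 to 0.74 and 0.71 to 0.86 between the guides. DESeq2 called 14 raised and 4 lowered with guide 2, and 0 and 10 in the libraries labelled guide 1.

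Samples with the same replicate number did not deviate together (r = -0.159 to 0.0946, 0 of 9 pairs over 0.1). In 2 of 9 comparisons of a library with the libraries of another group, the closest had the same number. With 3 libraries a group, these values cannot show whether libraries of the same number shared a culture or preparation. With the replicate number as a block, 12 members were called raised and 4 lowered with guide 2, 0 and 11 in the libraries labelled guide 1, and 43 higher and 3 lower between the guides.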
